A study of Rattus norvegicus with 16 samples.

Results

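Pklr, Khk, Tkt and Rgs16 are 4 of the 22517 gene symbols that RNA sequencing covered in the liver and the epididymal fat pad of male Zucker diabetic fatty rats (ZDF/GmiCrl-fa/fa), and all 4 symbols were found in every library. They are known targets of glucose and fructose sensing in liver, and they were chosen by that role and with their FPKM in liver, with and without lipoic acid, already known. That liver contrast is therefore given as a description, without a test, and nothing is supported by it. All 8 rats carried the fa/fa genotype, which leaves them without a working leptin receptor, so the controls were obese and insulin resistant too. From 9 to 11 weeks of age 4 rats received Purina 5008 chow with R-α-lipoic acid (LA) and 4 were pair-fed the same chow without it (PF). The chow gave 56.4% of its calories as carbohydrate, and rations for 2 days were handed out at a time. The 4 groups of tissue and feed had 4 biological replicates each, so there were 16 libraries, and the labels do not say which liver and fat library share a rat.

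These genes encode proteins at separate points of sugar handling in the hepatocyte. Pklr encodes the liver and red cell pyruvate kinase, which catalyses the last step of glycolysis, and Khk encodes ketohexokinase, which phosphorylates fructose as it enters the cell. Tkt encodes transketolase, which exchanges carbon units between sugar phosphates in the non-oxidative pentose phosphate pathway and so links it to glycolysis. Rgs16 encodes a regulator of G protein signalling that speeds the GTPase of Gi and Gq alpha subunits. Glucose and fructose metabolites activate ChREBP (encoded by Mlxipl), which with its partner Mlx binds carbohydrate response elements (ChoREs), paired E-box-like sites, near genes of glycolysis and lipogenesis. The Pklr element is a textbook example of a ChoRE.

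The number of reads per library is not in the files, so the counting error behind a value is unknown. Liver libraries had 9522 to 9738 genes at 1 FPKM or more and fat libraries 11276 to 11480, and libraries of a group correlated at 0.986 to 0.996 across genes. The 8-gene adipocyte list summed to at least 34432 FPKM in each fat library and to 58.1 to 72.0 FPKM in the liver libraries. From that list, adiponectin, leptin, resistin and Plin transcripts were at 0 in all liver libraries, and a 0 can be a failed estimate.

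The windows from 250 bases before to 50 bases after the start site are shown for the 4 genes because the ChoRE letters occur in some of them and not in others. They are from RefSeq on the GRCr8 build, 5′ to 3′ on the gene's strand, at chr2:176841014-176841313 on the plus strand for Pklr, chr6:31175432-31175731 on the minus strand for Khk, chr16:5729982-5730281 on the plus strand for Tkt and chr13:68437870-68438169 on the plus strand for Rgs16. Capitals mark matches to the ChoRE letters, CACGNG and CNCGTG with 5 bases between them, which read the same on both strands, and to the TATA letters TATAAA on either strand.
Pklr: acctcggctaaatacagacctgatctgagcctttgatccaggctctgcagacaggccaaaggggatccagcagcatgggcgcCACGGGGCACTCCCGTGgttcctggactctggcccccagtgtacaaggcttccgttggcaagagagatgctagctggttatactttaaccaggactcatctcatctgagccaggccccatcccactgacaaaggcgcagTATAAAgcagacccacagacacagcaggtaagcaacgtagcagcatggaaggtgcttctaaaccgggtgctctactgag
Khk: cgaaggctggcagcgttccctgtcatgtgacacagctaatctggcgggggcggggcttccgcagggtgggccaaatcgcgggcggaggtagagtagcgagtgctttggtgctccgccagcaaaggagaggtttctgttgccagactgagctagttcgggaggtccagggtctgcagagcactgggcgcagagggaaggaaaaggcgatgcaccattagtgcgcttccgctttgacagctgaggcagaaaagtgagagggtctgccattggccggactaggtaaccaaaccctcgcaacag
Tkt: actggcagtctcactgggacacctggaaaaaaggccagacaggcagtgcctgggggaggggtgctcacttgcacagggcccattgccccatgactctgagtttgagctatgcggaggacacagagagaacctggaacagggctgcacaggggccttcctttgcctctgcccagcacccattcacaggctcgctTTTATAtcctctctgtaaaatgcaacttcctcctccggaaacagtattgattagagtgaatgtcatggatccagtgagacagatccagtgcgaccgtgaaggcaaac
Rgs16: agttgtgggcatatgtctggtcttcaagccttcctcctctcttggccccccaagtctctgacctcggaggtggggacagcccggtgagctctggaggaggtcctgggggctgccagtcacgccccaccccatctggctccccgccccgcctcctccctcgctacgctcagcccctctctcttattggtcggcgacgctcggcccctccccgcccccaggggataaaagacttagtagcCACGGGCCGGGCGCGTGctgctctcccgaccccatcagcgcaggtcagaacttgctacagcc

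The ChoRE letters were found at positions -168 to -152 of the Pklr window and at -12 to 5 of the Rgs16 window, with the first transcribed base of the table's start site counted as 1. No match to these letters, or to the more degenerate ChoRE consensus, was found in the Khk and Tkt windows. Only these windows were searched, so a site outside them or with other letters would be missed. The absence of a match does not show that a gene lacks a ChoRE. Of 33469 windows of this length in the table, 11 held the ChoRE letters, a share of 0.0329%, and 25 held the degenerate consensus, a share of 0.0747%. The single E-box letters CACGTG were in none of the windows shown and in 6.42% of all windows. TATAAA, on either strand, was in the windows of Pklr and Tkt and in 14.2% of all windows, and it overlapped no ChoRE match. The GC box letters GGGCGG were in the windows of Khk and Rgs16 and in 33.1% of all, and CCAAT was in the same pair and in 37.5% of all. Among the other 9 genes with the ChoRE letters, 3 were expressed enough in liver to be tested, and none passed between feeds. These were Hes1, Irak1 and Nup62, with log2 differences (LA minus PF) of -0.58, 0.05 and 0.12. Hes1, a repressor downstream of Notch, had an adjusted p of 0.084 with limma. These motifs were searched after the windows had been seen, and a match describes letters only.

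Levels are in FPKM, fragments scaled to transcript length and library size, which can be compared between genes, and means are given ± SD over 4 libraries. Pklr in PF livers was at 206, 203, 288 and 243 FPKM in replicates 1 to 4, and in LA livers at 117, 137, 126 and 116. The lowest PF library lay above the highest LA library, and the mean went from 235 ± 39.5 to 124 ± 9.67, 52.7% of the PF level. Khk was at 341, 353, 320.2 and 301 FPKM in PF livers and at 235, 199.8, 209 and 226 in LA livers. It was the member with the smallest change, from 329 ± 23.1 to 217 ± 15.998 or 66.1%, and its groups did not overlap either.

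Tkt was at 186, 180.5, 148 and 195 FPKM in PF livers and at 102, 101, 108 and 97.1 in LA livers. The LA libraries lay close together, with an SD of 4.49% of their mean against 11.5% in PF livers, and the LA mean was 57.6% of the PF mean. Rgs16 was at 369.6, 318, 363 and 227 FPKM in PF livers and at 104, 72.5, 40.0 and 68.7 in LA livers. It had the largest change and the widest spread of the 4 genes under LA, with a mean at 22.3% of the PF mean and an SD of 36.7% of the LA mean.

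**Figure D1:**
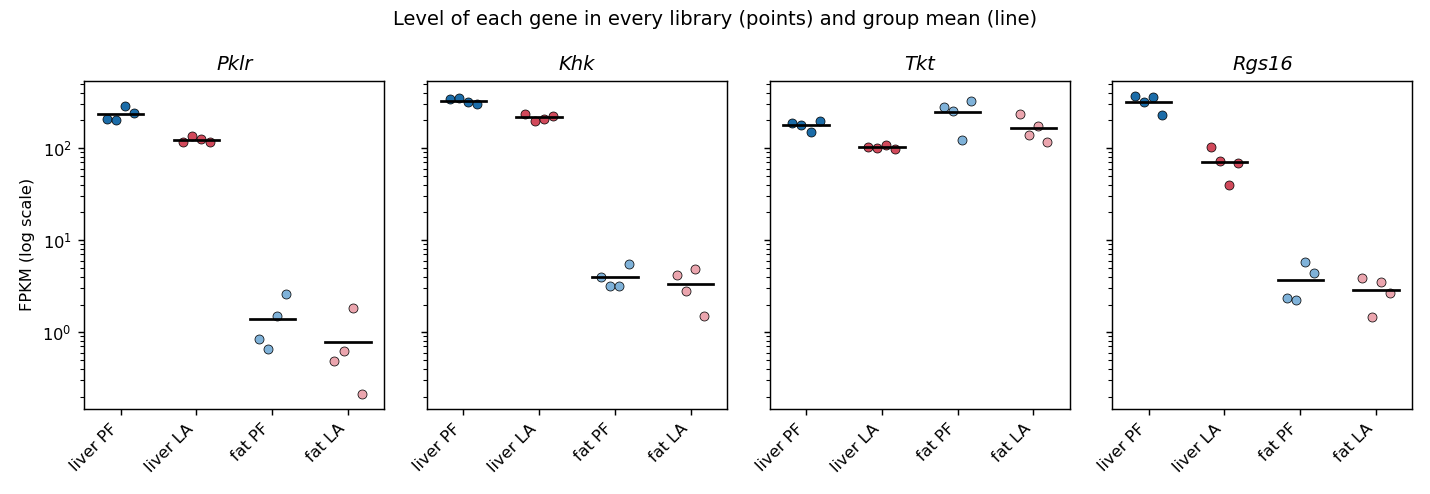
Level of Pklr, Khk, Tkt and Rgs16 in FPKM (vertical log axis) in the 4 groups of tissue and feed, with a point per library and a line at the group mean (n = 4). In liver each LA point lies below every PF point for all 4 genes, and in fat Pklr, Khk and Rgs16 lie below 6 FPKM while Tkt stays above 100 FPKM.

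On the log2(FPKM + 1) scale the liver differences were -0.91 (SE 0.11) for Pklr, -0.60 (SE 0.08) for Khk, -0.78 (SE 0.09) for Tkt and -2.20 (SE 0.25) for Rgs16. Groups that did not overlap, with LA lower, were seen for 6.39% of the 9710 genes expressed enough to be fitted, and for the 4 genes this follows from how they were chosen. Leaving out any liver library kept the 4 differences between -0.56 for Khk and -2.41 for Rgs16. In the same livers the 10 tested hepatocyte markers had a median difference of -0.34. Of these, 8 were lower in the mean and 2 were called lower, where 2.21% of all tested genes were. In 7 of the 10 the unadjusted limma p was under 0.05, against 1955 of all 9710 genes. Their summed level was 54104 to 65230.4 FPKM in PF and 40309 to 51919 FPKM in LA livers, with Alb listed at 0 throughout. The 7 tested macrophage markers had a median of 0.45, and all 7 were higher in the mean. Of the 7, 2 were called higher, where 4.48% of all tested genes were called in either direction, and 5 had an unadjusted limma p under 0.05. The sum of the macrophage markers was 122 to 148 FPKM in PF and 159.8 to 214 FPKM in LA livers, with Emr1 and Marco at 0. The part of these cell types in the liver values was not tested, and in bulk tissue fewer cells of a type and less RNA per cell cannot be told apart.

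All 4 genes were lower under LA, but within a feed they did not follow each other from library to library. Pklr and Khk lay on opposite sides of their group mean in all 8 liver libraries. In PF replicate 3, for example, Pklr was at 122% of its PF mean while Khk was at 97.4% and Tkt at 83.5%, the lowest of its group. Tkt and Pklr were on the same side in 3 of 8 libraries, Tkt and Rgs16 in 3 of 8, and Pklr and Rgs16 in 2 of 8. Khk and Rgs16 were the pair with most libraries on the same side, 6 of 8, followed by Khk and Tkt with 5 of 8. In LA livers Rgs16 was lowest in replicate 3, at 12.5% of its PF mean, where Tkt was the highest of its group, at 61.0%. In fat the counts were higher for most pairs, with Pklr and Rgs16, and Khk and Tkt, on the same side in 7 of 8 libraries. Deviations within a group of 4 sum to 0, so these counts are not of independent libraries and are given as a description.

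**Figure D2:**
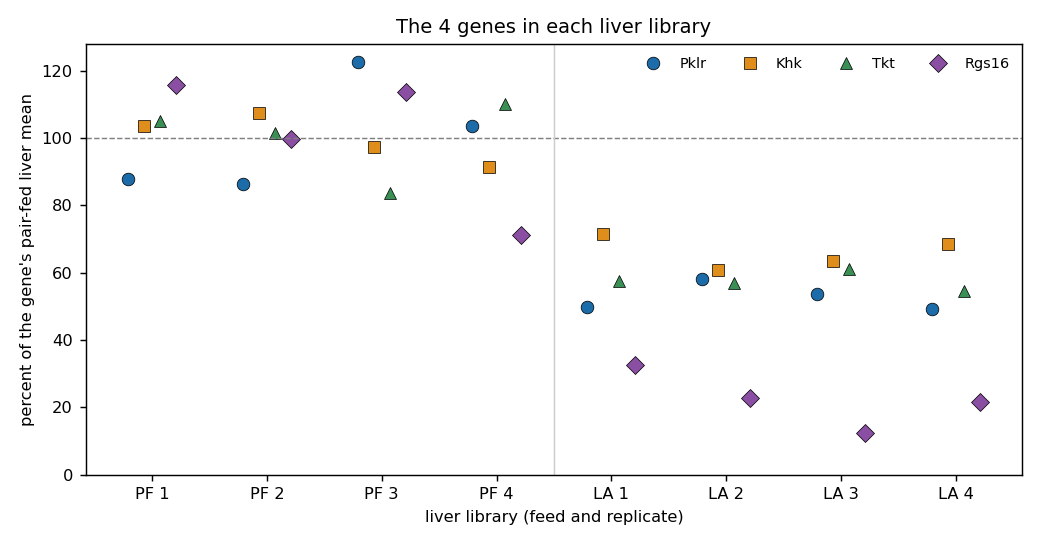
Each gene's level in each of the 8 liver libraries (horizontal axis, feed and replicate) as a percentage of its own mean over the 4 PF livers (vertical axis). All 4 genes are lower in each LA library, from 71.5% for Khk in LA 1 down to 12.5% for Rgs16 in LA 3, while their order changes between libraries of a feed.

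In epididymal fat Pklr, Khk and Rgs16 were low and Tkt was abundant. Pklr was at 0.849, 0.660, 1.49 and 2.58 FPKM in PF fat and at 0.492, 0.630, 1.83 and 0.215 in LA fat. Khk was at 3.99, 3.22, 3.21 and 5.53 FPKM in PF fat and at 4.15, 2.77, 4.90 and 1.51 in LA fat. Rgs16 was at 2.34, 2.23, 5.76 and 4.38 FPKM in PF fat and at 3.84, 1.47, 3.54 and 2.68 in LA fat. The feeds overlapped for each of these genes, while groups with LA lower and no overlap were seen in 0.756% of tested genes.

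Tkt was at 279.9, 251, 124 and 325 FPKM in PF fat and at 233, 139, 173 and 116 in LA fat. PF replicate 3 lay among the LA libraries, so the groups overlapped, although the LA mean was 67.5% of the PF mean. In the feed comparison of fat, none of the 3 members tested passed with limma, and none had an unadjusted p under 0.05, where 0.0174% of 11501 genes passed. The log2 difference of Tkt was -0.53 (95% interval -1.21 to 0.16, limma adjusted p = 0.9997). With 1 library left out it ranged from -0.82, without PF replicate 3, to -0.36. For Khk it was -0.25 (-0.84 to 0.33) and for Rgs16 -0.24 (-0.88 to 0.39), with the same adjusted p in limma. These intervals do not show that the genes were alike under both feeds, and those of Tkt and Khk include the size of their liver differences. Pklr reached 1 FPKM in 3 of 8 fat libraries, short of the 4 that the test asked for; without that filter its difference was -0.43 (SE 0.31).

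The fat libraries held transcripts of hepatocyte markers, and the low values of Pklr lie near that level. Relative to the mean liver of the same feed, the median of 10 hepatocyte markers (Alb, listed at 0 in liver, left out) was 0.522, 0.381, 0.453 and 0.861% in PF fat and 0.424, 0.325, 0.960 and 0.105% in LA fat. Pklr on the same scale was at 0.361, 0.281, 0.635 and 1.10% in PF fat and at 0.397, 0.508, 1.48 and 0.173% in LA fat. It was thus below the markers' median in 3 of 8 libraries and above their highest member in 2 of 8. In PF replicates 1 and 2 it was also below their lowest member, which was at 0.451 and 0.300%. Both Pklr and Khk were highest within their feed in PF replicate 4 and LA replicate 3, where the marker share was highest. Khk lay above the highest marker in all 8 libraries, at 0.694 to 2.26% of the liver mean, and Rgs16 in 7 of 8.

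With that marker share of the liver profile subtracted, Pklr was left at 0.247 ± 0.290 FPKM in PF and 0.238 ± 0.284 in LA fat. Khk was left at 2.17 ± 0.423 and 2.35 ± 0.859 FPKM and Rgs16 at 1.91 ± 1.65 and 2.56 ± 0.962. The direction of the feed difference then turned for both, to 0.05 (SE 0.19) for Khk and 0.40 (SE 0.35) for Rgs16, neither of which passed. The amount subtracted depends on the liver mean of the same feed, with which the genes were chosen. For Rgs16 it was 1.22 to 2.75 FPKM in PF fat and 0.0748 to 0.684 FPKM in LA fat. No conclusion about fat is therefore drawn from the turn. Tkt kept -0.52.

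**Figure D3:**
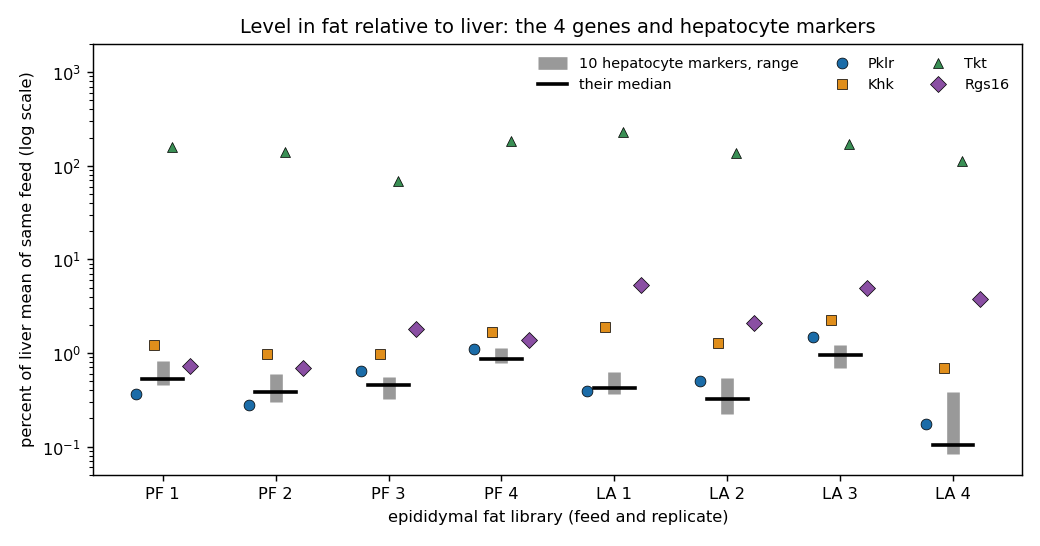
Level in each fat library (horizontal axis, feed and replicate) as a percentage of the mean liver level under the same feed (vertical log axis), for the 4 genes and for 10 hepatocyte markers (grey bar, their range; black line, their median). Pklr lies below the markers' range in PF 1 and PF 2, above it in PF 3 and LA 3, and within it elsewhere. Khk lies above the markers in all 8 libraries, and Tkt is at 69.6% to 228% of its liver level.

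Between the tissues of PF rats, Pklr, Khk and Rgs16 were higher in liver and the libraries of Tkt overlapped. The PF livers also enter the contrast with which the genes were chosen, so these values too are a description, with no p. The log2 difference (liver minus fat) was 6.67 (SE 0.22) for Pklr, with PF means 168 times apart. For Khk it was 6.07 (SE 0.14), 82.4 times apart, and for Rgs16 6.14 (SE 0.24), 86.9 times apart. Each of the 3 was higher in 4 of 4 PF livers than in any PF fat library, which was seen in 17.3% of tested genes. With limma, an adjusted p under 0.05 and a difference over 1 on the log2 scale, 11.1% of 11492 genes were called higher in liver. Tkt averaged 178 ± 20.4 FPKM in PF liver and 245 ± 86.3 in PF fat. Its log2 difference was -0.38 (SE 0.25) and turned to 0.29 when each library was centred on its median gene. Without fat PF replicate 3 the difference was -0.68 (SE 0.13), and with 1 library left out it ranged from -0.68 to -0.22. The median of all tested genes lay at -0.66 in this comparison, and that centring moved the split of calls from 1273 higher and 4174 lower to 2064 higher and 2253 lower.

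The order of the group means was liver PF, liver LA, fat PF and fat LA for Pklr, Khk and Rgs16, and the fat groups overlapped. For Tkt it was fat PF, liver PF, fat LA and liver LA, each overlapping the next except that every LA liver lay below every LA fat library. The feed difference in liver minus that in fat was -1.96 (SE 0.41) on the log2 scale for Rgs16. The same quantity was -0.48 (SE 0.34) for Pklr, -0.34 (SE 0.29) for Khk and -0.26 (SE 0.34) for Tkt. No p or interval is given, as the liver values in this quantity served to choose the genes. Over all genes 0.381% of 12079 passed this test. With a pseudocount of 0.1 the value of Pklr moved to -0.02, and without fat PF replicate 3 that of Tkt turned to 0.04.

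Of all genes tested in liver 4.48% passed with limma at an adjusted p under 0.05, and 2.21% fell. The unadjusted limma p was under 0.05 for 1955 of these 9710 genes. Of the other genes of fructose use, 2 of 8 tested fell in LA liver and none rose (median -0.15, against -0.002 over all tested genes). Slc2a5, the fructose transporter GLUT5, was at 28.1, 36.1, 47.9 and 35.8 FPKM in PF and at 24.5, 16.7, 15.4 and 20.6 in LA livers, with no overlap (log2 difference -0.90, SE 0.17, limma adjusted p = 0.015). Tkfc, the triokinase that phosphorylates glyceraldehyde from fructose and is listed as Dak, fell from 241 ± 39.3 to 162 ± 13.6 FPKM (-0.56, SE 0.11, adjusted p = 0.019). Slc2a5 lost its call without LA replicate 2 (limma adjusted p = 0.055) and Tkfc without LA replicate 3 (0.053). The sugar transporter Slc2a2 (GLUT2) was at 201 ± 15.9 and 204 ± 19.0 FPKM.

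Of 13 tested glycolysis genes beside Pklr, Aldoa rose by 0.51 on the log2 scale (SE 0.10, adjusted p = 0.021), 12 did not pass, and the median was 0.02. Aldoa, an aldolase typical of muscle, lost its call without LA replicate 2 or any of PF replicates 1, 2 and 3 (limma adjusted p up to 0.071), and no glycolysis gene passed in 1 model of all 16 libraries. Pkm, the other pyruvate kinase gene, listed as Pkm2, was at 1.95 ± 0.308 and 2.31 ± 0.489 FPKM in liver against 135 FPKM in PF fat, a tissue difference of -5.50, opposite in sign to that of Pklr.

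None of the 10 tested pentose phosphate genes beside Tkt passed in liver with limma, and the median was -0.12. In 4 of the 10 the unadjusted limma p was under 0.05, against 1955 of all 9710 genes. Taldo1, transaldolase, which works beside transketolase, was at 116 ± 12.2 and 94.6 ± 5.995 FPKM (adjusted p = 0.098). The transketolase-like genes Tktl1 and Tktl2 were at 0 in all liver libraries.

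Of the carbohydrate response targets 7 of 19 tested fell in LA liver and none rose, with a median of -0.63. Without the filter on low values 2 of the 19 fell, Pnpla3 and Thrsp, and in 1 model of all 16 libraries 5 did. The list was drawn up with results of these livers known, so its direction is not independent evidence. Pnpla3, a lipid droplet protein, was at 205, 118, 172 and 228 FPKM in PF and at 10.1, 8.66, 37.5 and 6.04 in LA livers, a log2 difference of -3.76 (SE 0.44, adjusted p = 0.0015). Thrsp, a lipogenic regulator, fell by 0.79, Acly, which makes cytosolic acetyl-CoA, by 1.57 and Elovl6, a fatty acid elongase, by 1.60. The desaturase gene Scd1 fell by 1.78, Tm6sf2, a factor in lipoprotein lipidation, by 0.52 and the clock repressor gene Bhlhe40 by 0.70. Of these 7, Pnpla3 and Thrsp kept their call without any 1 library. Acly lost it when LA replicate 2, PF replicate 3 or PF replicate 4 was left out, Scd1 when LA replicate 2 or any PF replicate but the third was left out, and Elovl6 kept it only without PF replicate 1, PF replicate 2 or LA replicate 3. Bhlhe40 kept it only without PF replicate 1 or 3, and Tm6sf2 only without PF replicate 4 or LA replicate 4 (limma adjusted p up to 0.102 otherwise). Txnip, a thioredoxin-binding protein induced by glucose, was at 22.0 ± 4.56 and 17.8 ± 2.64 FPKM (adjusted p = 0.33), and G6pc, the glucose-6-phosphatase, at 227 ± 131 and 215 ± 80.0 FPKM (adjusted p = 0.98).

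None of 10 tested sugar sensing regulators passed with limma, and the median was -0.02. In 2 of the 10 the unadjusted limma p was under 0.05, near the share over all genes (1955 of 9710). Mlx, the partner of ChREBP, was at 38.2 ± 1.68 FPKM in PF and 37.8 ± 3.00 in LA livers. Srebf1, whose product drives lipogenic genes under insulin, was at 192 ± 58.0 and 114 ± 48.8 FPKM (adjusted p = 0.13). Mlxipl was not matched to a symbol and is not analysed here.

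Rgs16 had the highest level in liver of the RGS genes measured on the list. None of the 6 other family members tested there passed with limma, and the median was 0.10. In 3 of the 6 the unadjusted limma p was under 0.05, against 1955 of all 9710 genes. Without the filter 1 of 15 fell, and in the model of all 16 libraries 1 of 11. Rgs3 was nearest to Rgs16 in direction, at 4.90 ± 1.99 FPKM in PF and 1.95 ± 0.319 in LA livers (log2 difference -0.93, limma adjusted p = 0.053). Rgs5, a member found in pericytes, was at 6.86 ± 2.31 and 7.29 ± 2.45 FPKM, and Rgs2 at 1.07 ± 0.373 and 1.25 ± 0.271. In the tissue comparison 9 of 11 tested members were lower in liver and none higher, where calls of lower in liver held for 36.3% of genes, with 58.9 FPKM of Rgs5 and 49.8 FPKM of Rgs2 in PF fat. None of 5 tested G protein alpha subunits passed in liver, and none had an unadjusted p under 0.05. Gnai2, a Gi alpha subunit, was at 25.4 ± 2.77 and 23.7 ± 1.69 FPKM there.

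**Figure D4:**
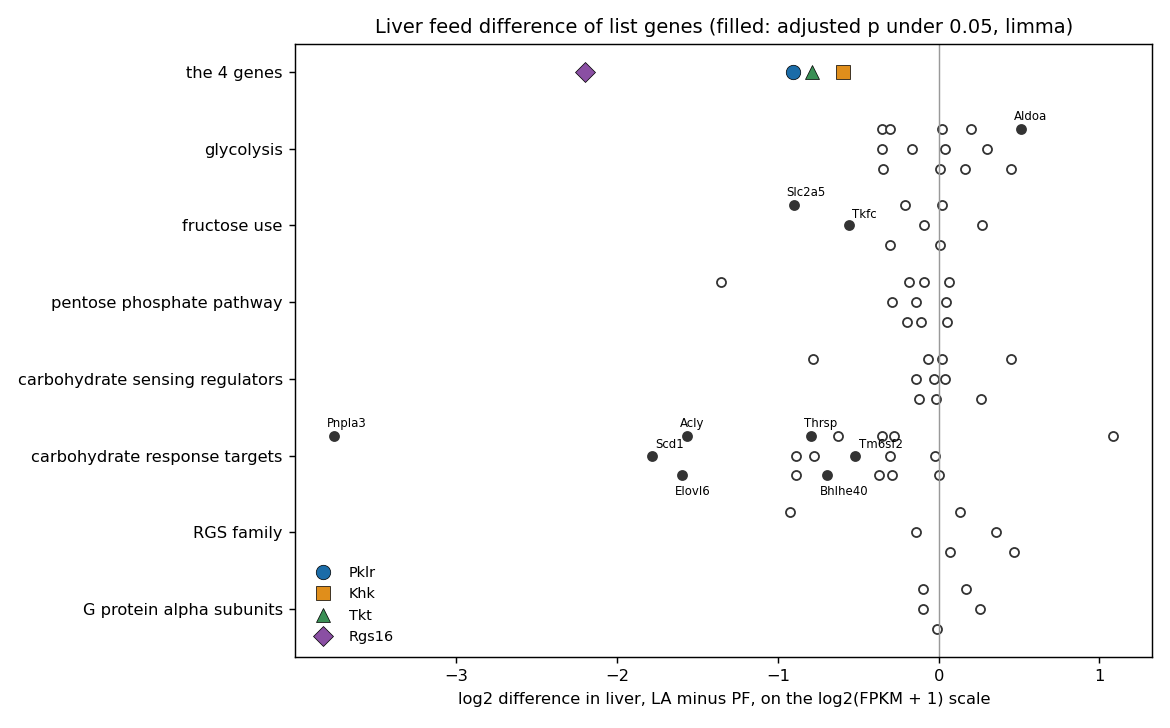
Log2 difference in liver (LA minus PF, horizontal axis) of the 4 genes and of the tested genes of 7 lists (rows), a point per gene. Coloured symbols are the 4 genes, and filled black points are list genes that passed at an adjusted p under 0.05 with limma, Aldoa among glycolysis genes, Slc2a5 and Tkfc of fructose use and 7 carbohydrate response targets, all but Aldoa to the left of 0.

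In fat, 1 gene of these 7 lists was called between the feeds, Scd1, which is listed at 0 in all PF fat libraries. Of the 18 carbohydrate response targets tested there, 14 were lower in the mean under LA and 4 higher (median -0.35). The 7 with an unadjusted limma p under 0.05 included Scd1, which was higher from its listed 0. Over all genes tested in fat, 5140 of 11501 were lower in the mean and 451 had such a p. Thrsp was at 4835, 4830.4, 1384 and 5838 FPKM in PF and at 3513, 1778, 2521 and 1826 in LA fat. Its PF replicate 3 was the lowest of its group, as for Tkt.

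The genes most alike over the 16 libraries were taken as those with the smallest root mean square difference in log2(FPKM + 1) after each gene's own mean was subtracted, among 9746 candidates. For Pklr these were Tmprss6 (0.20), a protease that lowers hepcidin, Apom (0.25), an apolipoprotein, Serpina10 (0.26), Acox2 (0.26), a peroxisomal oxidase of bile acid precursors, and F13b (0.27), all genes of high level in liver and low level in fat. Tmprss6 averaged 194 FPKM in PF and 133 in LA livers. For Khk they were the complement gene C8g (0.14), Hrsp12 (0.18), Hgfac (0.19), Mug2 (0.20) and Proz (0.21). For Tkt, which is abundant in both tissues, they were the citrate carrier Slc25a1 (0.20), Thrsp (0.23), Mcee (0.28), Memo1 (0.29) and Sub1 (0.30). Slc25a1 averaged 106 and 79.4 FPKM in PF and LA liver and 161 and 90.4 in PF and LA fat. Rgs16 had no gene as close, and its nearest were Aspg (0.65), Ugt1a5 (0.65), Srd5a1 (0.66), Stac3 (0.67) and Prlr (0.69). Among the 4 members, Pklr and Khk were the closest pair (0.40), with Khk at rank 51 of 9746 for Pklr. The tissue difference dominates this measure, and over the 8 liver libraries alone other genes were nearest.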

How the data were processed

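Libraries came from a TruSeq V2 kit, per the labels' protocols, which does not mark strand. The authors deposited FPKM, named so in the file headers, 1 value per gene symbol and library. CASAVA 1.8.2, TopHat and Cuffdiff are named in the submitters' processing notes. Genome build, annotation and settings: not given in the sources used here. Steps between low values put what 1 fragment is worth at 0.853 to 1 in PF livers and 0.722 to 0.895 in LA livers, relative to liver PF replicate 1, a rough estimate of depth whose part in the results was not tested. A 0 can be a failed estimate.

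Values were tested as log2(FPKM + 1), which understates changes of low genes, with limma 3.58.1 in R 4.3.3 (mean-variance trend, Benjamini-Hochberg adjustment over all tested genes), keeping genes that reached 1 FPKM in 4 or more of the libraries fitted. A call needed an adjusted p under 0.05, and a log2 difference over 1 too when tissues were compared. Liver, fat and PF libraries were fitted apart and the difference of feed effects over all 16 as independent libraries. The members, the 7 pathway and 11 cell type lists and the rule for named genes (the members, preset genes, up to 6 called genes per list, the 5 most alike genes) were chosen with earlier results of these data known. Srebf1, G6pc, Rgs3, Tktl1, Tktl2 and the other genes with ChoRE letters were named after their values were seen. Single values of some listed genes are not reported here. Symbols of 163 listed genes were in the files, 5 were found under an older symbol through RefSeq's GRCr8 table, and 17 were not matched. Adipocyte, T cell, B cell, erythroid, endothelial, fibroblast, cholangiocyte, mesothelial and epididymal markers had no more than 1 gene called per list in either feed comparison. On simulated data, the liver test (9692 genes) recovered 62.7% of genes changed by 0.5 on the log2 scale and 92.5% of those changed by 1, and the fat test (11505 genes) 34.3% and 89.6%. Noise was normal and independent, and low genes such as Pklr in fat were not among those changed. The planted changes also ease the adjusted p, and far fewer genes were called in the real fat comparison, so these shares may not hold there. No replicate pair held identical values. Alternatives were another pseudocount, no filter, median centring, a replicate block, all libraries in 1 model and each library left out; subtraction of the liver share from fat was added after the data had been seen. Figures were drawn with matplotlib 3.10.9.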

Additional observations from a re-analysis of the deposited data

Results flagged for a closer look

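Scd1, the stearoyl-CoA desaturase gene on the list of carbohydrate response targets, was flagged for its listed values in the tissues. Its feed difference in liver minus that in fat was -12.10 on the log2 scale, past the limma threshold in the model of all 16 libraries. All 4 PF fat libraries list it at 0, and it averaged 1667 FPKM in LA fat, while in liver it averaged 3389.8 FPKM under PF and 1121 under LA. A 0 in a gene so abundant elsewhere can be a failed estimate, which was not tested. No library of Pklr, Khk, Tkt or Rgs16 stood apart within its group of 4 by Dixon's ratio.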

How the results depend on the processing

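In liver the 4 genes kept their direction under every alternative run. The count of genes called in liver was 435, and with 1 library left out it ranged from 208 (without LA replicate 2) to 404 (267 without PF replicate 1). In fat 2 genes were called, 1 with a pseudocount of 0.1, 1 with the replicate block, 7 with all 16 libraries in 1 model and 0 to 2 with 1 library left out (0 without LA replicate 2 or 3). For the difference between tissues 46 were called, 22 with no filter and 19 to 60 with 1 library left out (19 without fat PF replicate 1). The value of Pklr there moved to -0.023 with a pseudocount of 0.1, and that of Tkt ranged from -0.42 to 0.040, turning without fat PF replicate 3. The fat differences of Khk and Rgs16 turned to 0.052 and 0.40 after subtraction of the liver share. That subtraction takes in the liver levels of each feed, with which the genes were chosen. The tissue difference of Tkt turned to 0.29 with median centring. The causes were not tested. Between liver and fat of a feed, where libraries could share a rat, same-numbered libraries correlated at -0.29 to 0.38. The same number was the best match for PF replicates 1, 2 and 3 and LA replicates 2 and 3, and not for the others. This does not settle whether the numbers pair libraries, and they were not taken as pairs. The replicate block changed no direction of the 4 genes. In liver, with that block, 7 carbohydrate response targets fell and 1 rose, and 1 RGS gene rose and 1 fell. Reads per library are unknown, so what depth limits was not tested.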
